A study of Mus musculus with 5 samples.

Results

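Transcripts of 9 transcription regulators that relay the circadian clock to its output genes, or that act through the D-box, were followed in the mouse retina after form-deprivation myopia (FDM). The genes were Dbp, Tef, Hlf, Nfil3, Bhlhe40, Bhlhe41, Ciart, Rora and Rorb. They were taken by gene symbol from the deposited table of 33636 genes, in which each had 1 row, and all 9 were among the 17432 genes tested. The rule that lists them uses no measured value, although it was written with earlier results of these data known. None of the 9 passed the test between FDM and control eyes, and the intervals below give the sizes of change that these libraries allowed.

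The samples were whole retinas of male wild-type C57BL6/J mice kept under a daily cycle of light and dark. A diffuser goggle, which blurs the image and lowers its contrast, covered the right eye from postnatal day 28 to 42, and the left eye of the same animals stayed uncovered and served as the control. RNA was taken in the light phase on day 42, with no clock time given, so that the values describe 1 stretch of the cycle and no rhythm could be measured. There were 2 FDM libraries, called FDM 1 and FDM 3, and 3 control libraries, called Control 1, Control 2 and Control 3. By these numbers, FDM 1 with Control 1 and FDM 3 with Control 3 are the right and left eyes of 2 mice, and Control 2 has no FDM partner because that library was removed by the authors. The sample labels number the second FDM library 2 in place of 3, so the pairing rests on the columns of the count table and on the study's supplement. The control eye belongs to the treated animal, so it is not the eye of an untreated mouse.

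The circadian clock of a cell is a feedback loop in which CLOCK and BMAL1 bind E-boxes and switch on genes for their own repressors, the PER and CRY proteins. The same E-boxes drive some of the output regulators. DBP, TEF and HLF are activators of the PAR bZIP family that bind the D-box. NFIL3 is a repressor that competes with them for this element. BHLHE40 and BHLHE41 (DEC1 and DEC2) and CIART (CHRONO) hold back transcription driven by CLOCK and BMAL1. RORA and RORB are nuclear receptors that activate genes with a ROR element, Bmal1 among them, where the REV-ERB proteins encoded by Nr1d1 and Nr1d2 repress. The retina keeps its own clock, and in its photoreceptors RORB is required for the rod fate and both receptors take part in the expression of cone opsins.

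The promoter sequence was examined because most of these regulators are themselves clock-controlled. RefSeq promoters of GRCm38.p6 were matched for 8 of the 9 genes, in 10 windows of the 250 bases before an annotated start, since Tef and Rorb had 2 starts each. Bhlhe40 had no entry. The motifs searched on both strands were the E-box CACGTG, the E'-box CACGTT, the D-box as TTATGTAA or TTACGTAA, and the ROR element TAGGTCA. The 3 genes with an E-box are shown from the 5′ end on the strand of the gene, with the E-boxes in capitals. For Tef the downstream of its 2 windows is given. Bases that lie in an exon of the GENCODE M21 annotation were left out, 23 for Ciart and 138 for Bhlhe41. Distances are counted from the RefSeq start, whereas the gene positions given below are those of GENCODE.
Ciart, chr3:95882252-95882478, - strand: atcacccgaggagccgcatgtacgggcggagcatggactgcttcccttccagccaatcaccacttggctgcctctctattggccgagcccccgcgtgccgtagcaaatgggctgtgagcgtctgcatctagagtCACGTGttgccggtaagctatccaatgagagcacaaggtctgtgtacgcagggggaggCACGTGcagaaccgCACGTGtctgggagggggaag
Bhlhe41, chr6:145865559-145865670, - strand: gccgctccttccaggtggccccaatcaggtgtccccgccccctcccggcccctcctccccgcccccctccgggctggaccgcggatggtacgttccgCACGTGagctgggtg
Tef, chr15:81811164-81811413, + strand: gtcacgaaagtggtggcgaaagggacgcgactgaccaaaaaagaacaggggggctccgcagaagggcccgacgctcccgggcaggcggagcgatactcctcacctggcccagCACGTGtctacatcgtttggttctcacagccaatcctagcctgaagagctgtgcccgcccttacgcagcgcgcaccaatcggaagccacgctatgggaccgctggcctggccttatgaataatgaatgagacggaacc

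Ciart held 3 E-boxes, at 116, 58 and 44 bases before its start. Only 20 of 32807 mouse promoters (0.061%) held 3 or more in a window of this length, against 6.02% with at least 1. The limit of 3 equals the count found in Ciart, so this share describes the gene and is not a test of it. Bhlhe41 held 1 E-box at 153 bases, and the Tef windows held 1 each, at 127 and 138 bases. Both Tef windows lie within the GENCODE bounds of the gene. A ROR element, a motif found in 2.24% of promoters, lay 12 bases before the RefSeq start of Nfil3. These bases lie inside an exon of Nfil3 in the GENCODE annotation. An E'-box, found in 3.85%, lay 234 bases before 1 of the starts of Rorb, also within the GENCODE bounds of that gene. No D-box letters were found in the 10 windows, and 0.93% of all promoters held them. The windows of Dbp, Hlf and Rora held no match to any of the motifs. Sequence outside the windows, such as introns, was not searched, so a gene without a match may carry these motifs elsewhere. The matches describe the letters of the windows and were not measurements of binding.

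**Figure D1:**
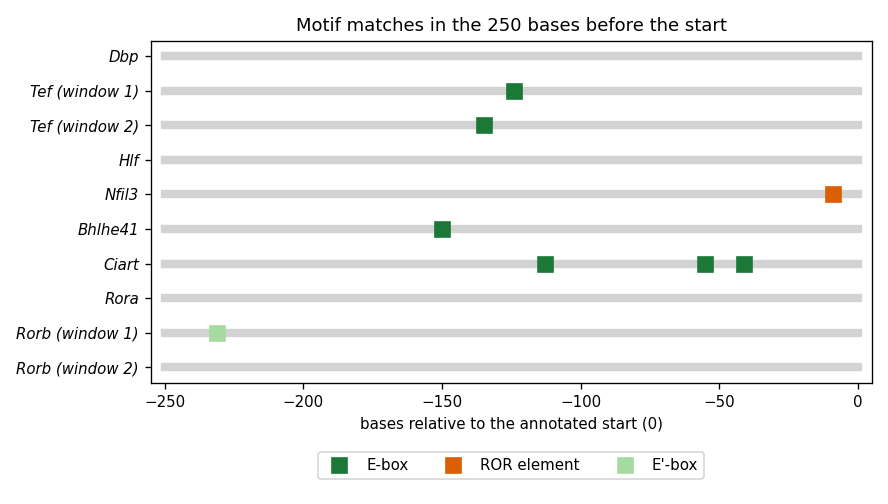
Motif matches in the 250 bases before each RefSeq start (horizontal axis, bases relative to the start at 0), with squares coloured by motif. The 10 windows belong to the 8 matched genes. Ciart carried 3 E-boxes, the Tef windows and Bhlhe41 carried 1 each, Nfil3 had a ROR element 12 bases before its start, and no window had a D-box.

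The libraries held 40599047 to 56534931 estimated counts. All 20 markers listed for the retina were expressed, with a summed level of 50447 CPM in Control 2 and 55982 to 63196 CPM in the other libraries. CPM is the count scaled to a common library size with TMM factors, which correct for differences in library composition. Markers of tissue beside the retina differed between libraries. The 12 lens genes summed to 2174 CPM in FDM 3 and to 3.18 to 25.8 CPM elsewhere, and all 12 were called higher in FDM, against 0.453% of all genes. The 10 retinal pigment epithelium (RPE) genes summed to 223 and 196 CPM in Control 2 and Control 3 and to 57.2 to 67.3 CPM in the rest, and 6 of the 10 were called lower in FDM, against 1.16% of all genes. The 8 muscle genes summed to 71.8 CPM in Control 3 and to 9.39 to 10.9 CPM elsewhere. Their part in the values of the clock regulators was not tested. In bulk retina, fewer cells of a type and less RNA per cell cannot be told apart.

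At an unadjusted p of 0.05, the threshold of the study, 0 of the 9 regulators were called by the quasi-likelihood test of edgeR, against 281 of all 17432 genes (1.61%). After Benjamini-Hochberg adjustment no gene was called in this fit, and each regulator had an adjusted p of 1.0. DESeq2 also called 0 of the 9, against 0.987% of all genes, and after adjustment it called 3 of all genes and 0 of the 9. The log2 fold changes of the regulators lay between -0.12 (Bhlhe40) and 0.14 (Rorb), with 7 below 0 and 2 above, and a median of -0.03. Over all tested genes the median was -0.01 and 55.6% were below 0. The outermost bounds of the 95% intervals were 0.784-fold for Bhlhe40 and 1.36-fold for Rorb, so a change of 2-fold in either direction lay outside the interval of every regulator.

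**Figure D2:**
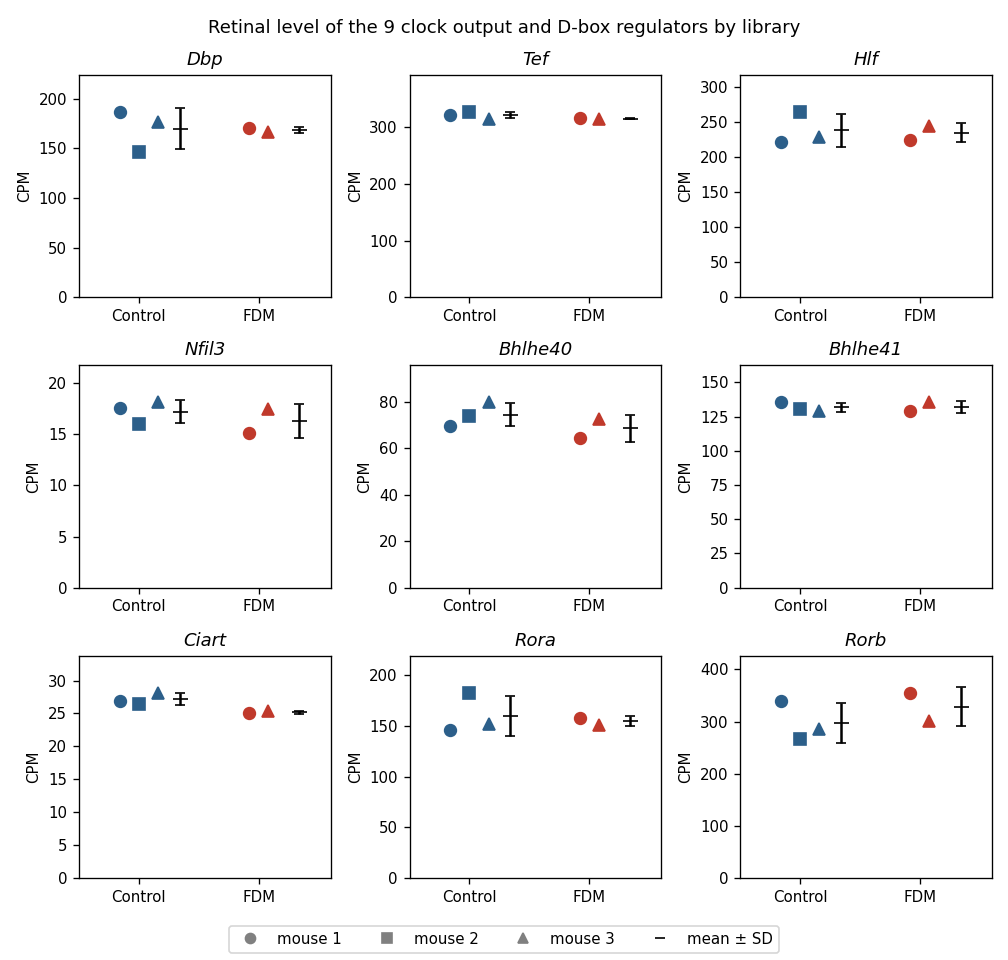
Level of each regulator in CPM (vertical axes, starting at 0) in the 3 control and 2 FDM libraries, with the symbol giving the mouse and the bar giving mean ± SD. The FDM points lie within the spread of the control points or overlap it for every gene but Ciart, whose 2 FDM libraries (25.0 and 25.4 CPM) sit below the 3 controls (26.4 to 28.2 CPM).

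Dbp, the PAR bZIP gene used as a standard readout of clock output, lies at chr7:45705088-45710203 on the + strand of GRCm38. It measured 170.3 CPM in FDM 1 and 166 CPM in FDM 3, and 187, 147 and 176 CPM in Control 1, 2 and 3. The highest and the lowest library were both controls, so the FDM values fell inside the control range. The means were 168 ± 2.96 CPM (SD, n = 2) in FDM and 169.9 ± 20.7 CPM (SD, n = 3) in control eyes, a log2 fold change of -0.01 with a standard error of 0.11 (edgeR, unadjusted p = 0.908). The interval ran from -0.28 to 0.25 on the log2 scale. Control 2 set the low end of this gene. Without it the log2 fold change was -0.10, with an unadjusted p of 0.188 in edgeR.

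Tef, the second PAR bZIP activator, lies at chr15:81802421-81826863 on the + strand. Its level was 316 and 315 CPM in FDM 1 and FDM 3, and 322, 327 and 315 CPM in Control 1, 2 and 3. With TMM factors the whole spread over the 5 libraries was 0.056 on the log2 scale, the narrowest of the 9 regulators. Only 0.99% of the 10603 genes with a mean of at least 10 CPM had a narrower spread. With the authors' normalized counts, the control libraries of Tef alone spanned 0.145. The FDM and control means were 315 ± 0.991 and 322 ± 6.04 CPM, a log2 fold change of -0.03 with a standard error of 0.08 (edgeR, unadjusted p = 0.720).

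Hlf, the third activator, lies at chr11:90336536-90390895 on the - strand. FDM 1 and FDM 3 had 225 and 244 CPM, while the controls had 222, 264 and 228 CPM. The groups overlapped, with the highest and lowest values again in control libraries. The log2 fold change was -0.02 with a standard error of 0.10 and an interval from -0.26 to 0.22 (edgeR, unadjusted p = 0.846).

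Nfil3, the repressor at the D-box, lies at chr13:52967209-52981073 on the - strand. It was the least abundant of the 9 regulators by CPM, with 656 to 910 counts per library. The level was 15.1 CPM in FDM 1, the lowest of the 5 libraries, and 17.5 CPM in FDM 3, against 17.5, 15.96 and 18.1 CPM in the controls. The log2 fold change was -0.08 with a standard error of 0.11 and an interval from -0.33 to 0.18 (edgeR, unadjusted p = 0.509). The ratio of counts of the 3 activators together to Nfil3, which needs no scaling between libraries and was computed after the values had been seen, was 47.0 in FDM 1, 41.5 in FDM 3, and 41.7, 46.3 and 39.7 in Control 1, 2 and 3. This count ratio therefore overlapped between the groups, at 44.2 ± 3.92 (SD, n = 2) in FDM and 42.6 ± 3.34 (SD, n = 3) in control eyes. Counts were not divided by transcript length, so the ratio compares libraries and does not give the relative number of transcripts.

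Ciart, the repressor with 3 E-boxes in the promoter printed above, lies at chr3:95878503-95882251 on the - strand. FDM 1 and FDM 3 had 25.0 and 25.4 CPM, and the controls had 26.9, 26.4 and 28.2 CPM. It was the only regulator whose groups did not overlap on the TMM scale. Among all tested genes, 6.67% had both FDM libraries below every control and 3.97% had both above. The means were 25.2 ± 0.239 and 27.1 ± 0.901 CPM. The log2 fold change of -0.11, with a standard error of 0.08 and an interval from -0.29 to 0.07, did not pass the threshold (edgeR, unadjusted p = 0.207). Ciart had the lowest p of the 9.

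Bhlhe40, whose product represses at E-boxes and which is also induced by stimuli such as light, lies at chr6:108660629-108666925 on the + strand. It had 64.5 CPM in FDM 1, the lowest of the libraries, and 72.8 CPM in FDM 3, against 69.7, 74.1 and 79.8 CPM in the controls. FDM 3 lay between Control 1 and Control 2, so the groups overlapped. With means of 68.7 ± 5.86 and 74.5 ± 5.07 CPM, the log2 fold change of -0.12 had a standard error of 0.10 and an interval from -0.35 to 0.11 (edgeR, unadjusted p = 0.271). It was -0.034 without FDM 1, -0.21 without FDM 3 and -0.060 without Control 3. A list of 10 genes that respond to light and activity, Fos and Egr1 among them, summed to 235 and 188 CPM in FDM 1 and FDM 3 and to 343, 175 and 328 CPM in the controls. Of the 9 of these that were tested, 2 were called lower, Arc and Fosl2, against 1.16% of all genes. With the mouse block all 9 were called lower, against 3.67% of all genes.

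Bhlhe41, the paralogue of Bhlhe40, lies at chr6:145858243-145865558 on the - strand. FDM 1 and FDM 3 had 129 and 135 CPM, and Control 1, 2 and 3 had 135, 131 and 129 CPM. These TMM-scaled values spanned 0.072 on the log2 scale, and 2.25% of the genes of at least 10 CPM spanned less. With the authors' normalized counts, FDM 3 and Control 3 alone differed by 0.19. The log2 fold change was 0.00 with a standard error of 0.08 and an interval from -0.18 to 0.19 (edgeR, unadjusted p = 0.976). The count ratio of Bhlhe41 to Bhlhe40 was 1.99 and 1.86 in FDM 1 and FDM 3 and 1.94, 1.76 and 1.62 in the controls, so it overlapped between the groups.

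Rora lies at chr9:68653786-69388246 on the + strand. Its level was 158 and 151 CPM in the FDM libraries and 146, 183 and 152 CPM in the controls, of which Control 2 stood highest. The log2 fold change was -0.05 with a standard error of 0.11 and an interval from -0.32 to 0.22 (edgeR, unadjusted p = 0.664).

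Rorb, the ROR gene of the rod lineage, lies at chr19:18930605-19111196 on the - strand. FDM 1 had 356 CPM, the highest value, and FDM 3 had 302 CPM, whereas the controls had 339.7, 266 and 286 CPM. Control 1 exceeded FDM 3, so the groups overlapped. The means were 329 ± 37.8 CPM in FDM and 298 ± 37.8 CPM in control eyes, with a log2 fold change of 0.14, a standard error of 0.13 and an interval from -0.15 to 0.44 (edgeR, unadjusted p = 0.294). Rorb had the widest spread of the 9, 0.416 on the log2 scale, and 82.3% of the genes of at least 10 CPM varied less. Without Control 1 its unadjusted p in edgeR was 0.0527, the lowest of any regulator in any fit, and the log2 fold change was 0.25. It was 0.022 without FDM 1 (edgeR, unadjusted p = 0.904), 0.26 without FDM 3 and 0.082 without Control 2. Control 2 was highest for Rora and lowest for Rorb, and the count ratio of Rorb to Rora was 1.46 there and 1.88 to 2.33 in the other libraries.

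The genes with levels most like those of Rorb over the 5 libraries were Zdhhc24, Kifc1, Axin2, Pcdhgb7 and Cdc42ep3, among 10603 genes of at least 10 CPM. The measure was the root mean square of the differences between centred log2 CPM values, 0.011 for Zdhhc24 and 0.0184 to 0.0225 for the next 4. All 5 patterns were highest in FDM 1 and lowest in Control 2, as that of Rorb was. This follows from how the 5 genes were picked.

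Levels between genes were compared as CPM per kilobase of the longest coding transcript in the GENCODE M21 annotation. Dbp was highest at 92.1, with a range of 79.9 to 102 over the 5 libraries, followed by Tef at 72.5 (71.5 to 74.3), Hlf at 41.9 (39.3 to 46.8) and Rorb at 33.4 (28.7 to 38.3). The 3 PAR bZIP activators thus took the first 3 places. Bhlhe40 (23.2) and Bhlhe41 (21.5) came next, with overlapping ranges, and they changed places when all annotated exons were merged to give the length. Rora at 14.5 and Ciart at 13.6 also overlapped, and Nfil3 was lowest at 8.31 (7.47 to 8.94).

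Within a mouse, the FDM eye was compared with its control eye for the 2 animals with both libraries. There is 1 library per eye, so this comparison has no replicate check within an animal. On the TMM scale the FDM eye was lower in both mice for 5 of the 9 regulators, Dbp, Tef, Nfil3, Bhlhe40 and Ciart, and higher in both for 2, Hlf and Rorb. Among all tested genes, 30.3% were lower in both mice and 24.7% higher in both. With the counts normalized by the authors, Tef was higher in both mice and Bhlhe40 differed in sign between them, so that Dbp, Nfil3 and Ciart remained lower in both. Scaling to library totals alone turned Tef opposed and Rora higher in both.

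The eye difference of Dbp was -0.13 in mouse 1 and -0.08 in mouse 3 on the log2 scale, while its control eyes differed by up to 0.35 between mice. Ciart differed by -0.10 and -0.15, and its control eyes by up to 0.09, so both differences exceeded the spread between the animals on the TMM scale. With library totals or RLE factors the difference in mouse 1 was -0.082 or -0.086, inside the control range of 0.089 or 0.096. Nfil3 gave -0.21 and -0.05, against up to 0.18 between control eyes. Rorb gave 0.07 and 0.08, against up to 0.35. Bhlhe41 gave -0.072 and 0.065, of opposite sign, against up to 0.066. With library totals, RLE factors or the authors' normalized counts, both of its differences exceeded the control range. For 6 of the 9 regulators (66.7%) both eye differences on the TMM scale were smaller than the range of the control eyes. The share was 87.2% among the genes of at least 10 CPM.

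**Figure D3:**
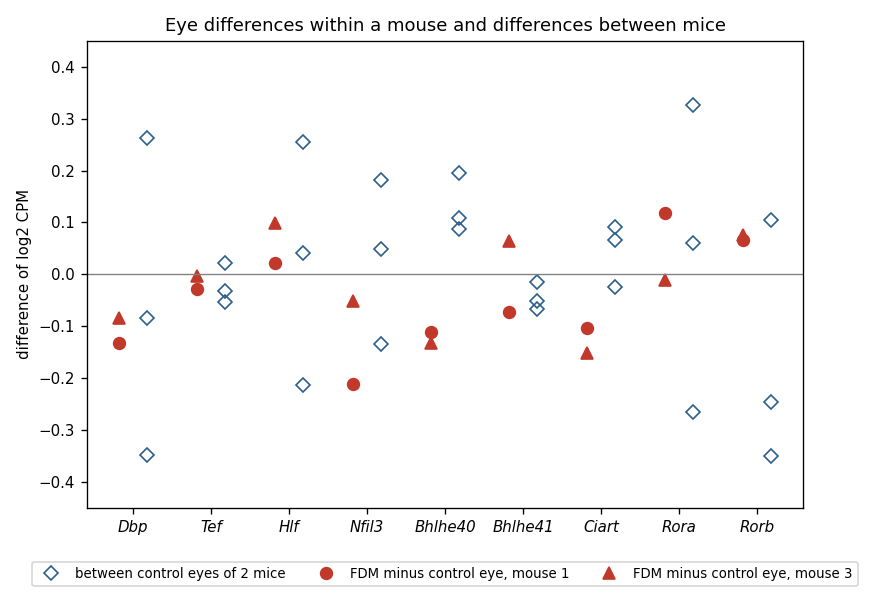
Difference of log2 CPM between the FDM and control eye of mouse 1 (circles) and mouse 3 (triangles), beside the 3 differences between control eyes of different mice (open diamonds, later minus earlier number). For Dbp, Rora and Rorb the control eyes differed by 0.33 to 0.35 at most, more than either eye difference, and for Ciart both eye differences lay below those between controls.

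With the mouse as a block, edgeR called 0 of the 9 regulators, against 7.23% of all genes, with 1 residual degree of freedom. With this mouse block, the log2 fold change and unadjusted p were -0.13 and 0.0606 for Ciart, -0.11 and 0.0681 for Dbp, and -0.12 and 0.0891 for Bhlhe40. The adjusted p of Ciart and of Dbp was 0.695. A block by the label numbers also called 0 of the 9, against 2.52% of all genes. The unadjusted p there was 0.547 for Ciart, 0.863 for Dbp and 0.661 for Bhlhe40 in edgeR. After adjustment 54 of all genes were called with the mouse block and 128 with the label block, with 0 of the 9 regulators in either.

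Of the 12 core clock genes, from Clock and Bmal1 to the Per, Cry and REV-ERB genes, 0 were called, against 1.61% of all genes. Their log2 fold changes were below 0 for 9 and above for 3, with a median of -0.06. Per1, an E-box and D-box target of the clock loop, came nearest, with 147 and 158 CPM in FDM 1 and FDM 3 and 164, 164 and 185 CPM in the controls. Both FDM libraries of Per1 lay below all controls, as they did for 6.67% of all tested genes. The log2 fold change was -0.17 (edgeR, unadjusted p = 0.110). Per1 was called lower with the mouse block, at -0.20 (edgeR, unadjusted p = 0.00522, adjusted p = 0.471), and Per3 was called higher, at 0.13 (edgeR, unadjusted p = 0.0361, adjusted p = 0.666), where 3.67% and 3.57% of all genes were called lower and higher. Nr1d1, which encodes REV-ERB alpha, varied from 217 CPM in Control 2 to 329.7 CPM in Control 1, and both FDM libraries fell between.

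A list of 9 genes held clock kinases and ubiquitin ligases, which set the stability of the PER and CRY proteins, and also Timeless. The list gave 0 calls, with 5 log2 fold changes above 0 and 4 below. None of the 8 D-box targets passed, a list that contains Rora and Rorb and shares the Per and REV-ERB genes with the core clock. Likewise 0 of 5 genes that ROR proteins control in photoreceptors passed, Opn1sw and Nrl among them. Over all tested genes the share called was 1.61%.

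**Figure D4:**
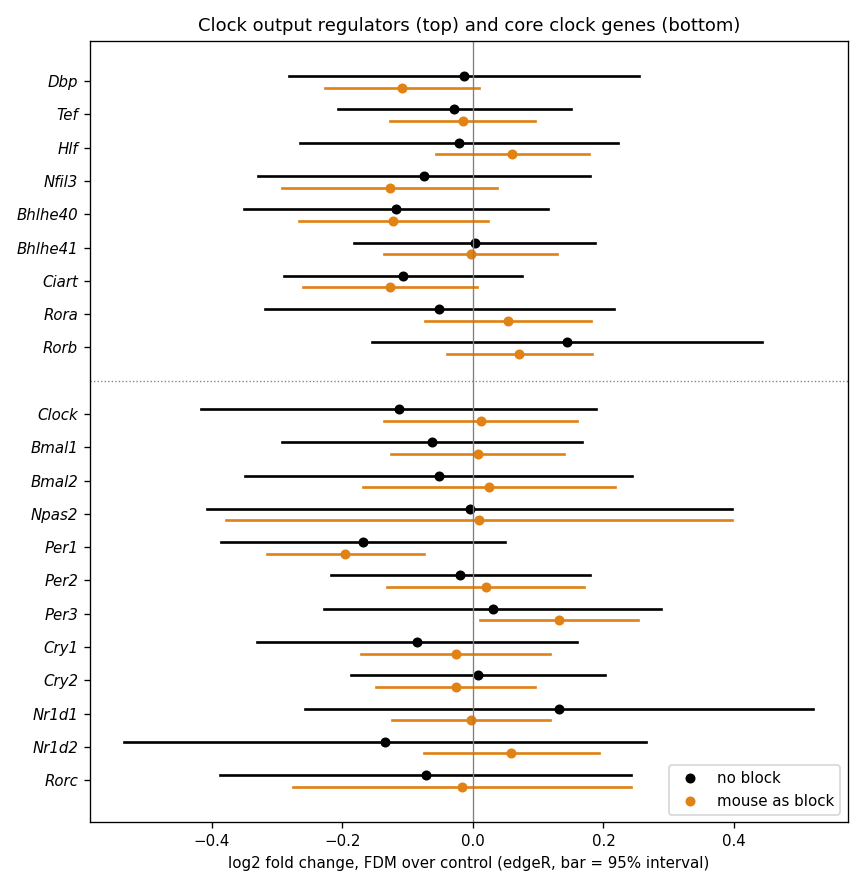
Log2 fold change of FDM over control (horizontal axis) with its 95% interval from edgeR for the 9 regulators (top) and the 12 core clock genes (bottom), without a block (black) and with the mouse as a block (orange). Every black interval of the 9 regulators spans 0, and of the core clock genes Per1 and Per3 leave 0 with the block.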

How the data were processed

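Retinal RNA was sequenced by the authors from poly(A)-selected TruSeq libraries. Per the labels and the study's methods, reads were trimmed with Trimmomatic 0.39 and quantified with Salmon 1.10.1, and the authors deposited gene-level estimated counts as whole numbers on GRCm38. A second table deposited by the authors holds their normalized signal, which DESeq2 computed with a factor for each gene and library. For the 9 regulators these factors were 0.941 to 1.05 times the median of their library.

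Genes with more than 10 estimated counts in at least 2 libraries were tested with the quasi-likelihood test of edgeR 4.0.16 in R 4.3.3, with TMM factors and no covariate. All 5 libraries entered the fit, and Benjamini-Hochberg values cover all 17432 genes. A standard error was obtained by dividing the absolute log2 fold change by the root of its F statistic. Other fits used limma 3.58.1 on the log2-transformed normalized table with a pseudocount of 1 or 0.1, DESeq2 1.42.0, other factors and filters, blocks, and each library left out. The scripts were tested on simulated counts. The control libraries come from 3 mice, and the groups are not independent because 2 mice gave both eyes.

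The members and gene lists were chosen with earlier results of these data known. The rule named all 9 members and the listed clock genes; the 5 genes most like Rorb were taken by smallest distance. Deviations from the group means correlated across genes at 0.252 for FDM 1 with Control 1 and at 0.134 for FDM 3 with Control 3. They also correlated at 0.143 for FDM 3 with Control 2, the pair that the label numbers give. With 2 FDM libraries, each deviation of FDM 3 is that of FDM 1 with the opposite sign. These correlations are therefore not independent of each other. The pairing by mouse therefore rests on the column numbers and the study's supplement, not on this check. No pair of libraries agreed within sampling noise (chi-square per degree of freedom of at least 9.46). RefSeq GRCm38.p6 gave the promoter sequences. Rows without a symbol held 0.000184% of counts.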

Additional observations from a re-analysis of the deposited data

How the results depend on the processing

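The count of 0 called regulators was unchanged under all 15 alternatives. Of 135 log2 fold changes of the regulators recomputed, 117 kept their direction and 18 changed sign, all of them without a call; the cause was not tested. The signs turned for Dbp with the replicate block by label numbers (0.023), for Hlf with the authors' factors as offsets (0.0061), limma with either pseudocount (0.011) and the replicate block by mouse (0.060), for Bhlhe41 with no count filter (-0.00097), the mouse block (-0.0036) and the label block (-0.011), and for Rora with the mouse block (0.054). With each library left out in turn, the range was -0.098 to 0.060 for Dbp, -0.082 to 0.072 for Hlf, -0.18 to 0.025 for Nfil3, -0.034 to 0.038 for Bhlhe41 and -0.11 to 0.064 for Rora, whose signs turned. Without a turn of sign it was -0.036 to -0.0052 for Tef, -0.21 to -0.034 for Bhlhe40, -0.12 to -0.074 for Ciart and 0.022 to 0.26 for Rorb.

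Of 54 eye differences under other scalings, 49 moved by less than 1 SD of the control eyes, and 5 moved further with the authors' normalized counts: Tef to 0.04 in mouse 1 and 0.05 in mouse 3, Bhlhe40 to 0.04 in mouse 1, Bhlhe41 to 0.19 and Ciart to -0.10 in mouse 3. The lists of the core clock and of kinases, ligases and Timeless held 21 genes. Of these, 1 (Per1) was called with the authors' offsets and with limma at either pseudocount. With the mouse block 2 were called, against 0 in the main fit. The count of all genes called, 281, became 172 with DESeq2, 498 with no count filter, 1261 with the mouse block, 439 with the label block, and 146 to 944 with 1 library left out, at 944 without Control 1, 550 without Control 2, 165 without FDM 1 and 146 without Control 3. Neither block changed a call among the regulators.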

Other observations

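Over the 9 regulators, the mean absolute difference of log2 CPM was 0.0745 between FDM 3 and Control 3 and 0.0959 between FDM 1 and Control 1, the eyes of 1 mouse each. It was 0.177 between Control 1 and Control 2, the largest of the 10 pairs of libraries, and 0.104 between the 2 FDM libraries. Eyes of different mice could be as close, with 0.0792 between FDM 3 and Control 1 and 0.0934 between Control 1 and Control 3. Control 2 was the highest or lowest library for 5 of the 9 regulators, and so was FDM 1. Over the 10603 genes of at least 10 CPM, Control 2 was highest for 34.6% and lowest for 36.6%, and FDM 1 was highest for 8.05% and lowest for 14.4%.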
